A study of Homo sapiens with 6 samples.

Results

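Gemcitabine-resistant SW1990 cells were compared with TRA-1-81 positive cells sorted from the parental line, to ask which transcripts set the resistant cells apart beyond the TRA-1-81 positive state. SW1990 is an established human pancreatic cancer cell line. A gene was examined when its FPKM (fragments counted per kilobase of transcript and relative to all mapped fragments) was at least 1 in 1 or more of the 3 libraries compared, which held for 12099 of 19077 genes. It counted when the resistant library lay on the same side of both positive libraries on the log2(FPKM + 1) scale, and it was called higher or lower when the distance was at least 2-fold against each of them. The resistant group is 1 library, from a derivative cultured with gemcitabine at 100 nM. The positive group is 2 libraries, named 0603 and 0610, from parental cells grown without the drug and sorted by flow cytometry. The other 3 libraries serve as background: 2 from TRA-1-81 negative cells, also numbered 0603 and 0610, and 1 from unsorted parental cells. All 6 share DMEM/F-12 medium with serum. The resistant cells were unsorted and under drug, so resistance, a response to the drug present and the absence of sorting cannot be told apart, and the labels do not say whether the derivative is 1 clone.

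TRA-1-81 is a keratan sulfate-like glycan epitope, known from pluripotent stem cells, that is carried by the sialomucin podocalyxin. Gemcitabine is a deoxycytidine analogue: nucleoside transporters bring it into the cell, deoxycytidine kinase starts its phosphorylation, cytidine deaminase inactivates it, and its diphosphate inhibits ribonucleotide reductase. Pancreatic cancers are often described along an axis from a classical, glandular state to a basal or squamous state with keratins of stratified epithelium.

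The ductal line was recognisable in every library: 8 of 9 ductal marker genes had an FPKM of at least 1 in each. Of these 8, 6 lay below both positive libraries, with a median of -0.43 for the list, but 0 were called lower. The ductal keratin KRT7 was called higher, at 1285 against 534 and 477. Leukocyte markers were detected at that level for 2 of 13 genes in every library, CD68 and LYZ, and the leukocyte gene PTPRC stayed at 0.0205 or below. The summed FPKM of 12 fibroblast and endothelial markers was 23.8 in the resistant and 9.22 and 10.6 in the positive libraries, with COL1A1 and LUM called higher. Of 12 acinar and islet markers, 0 reached an FPKM of 1 in the resistant library. Genes with an FPKM of at least 1 numbered 11164 to 11729 per library. Judged by the lowest non-zero values of olfactory receptor genes of about 1 kb, 3 fragments on a 1 kb transcript correspond roughly to an FPKM of 0.145 in the resistant and 0.0974 to 0.111 in the positive libraries, so values near or below these are at the limit of detection.

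Among the genes that stood higher in the resistant cells were cornified envelope genes, matrix metalloproteinases, cytokines and chemokines with NF-kB feedback genes, and interferon-stimulated genes. The stretches of promoter printed here are shown because they carry, upstream of such genes, the recognition letters of the factor families these gene groups are known for. They are RefSeq sequences of GRCh38.p14, written 5′ to 3′ on the strand of the gene, with matches in capitals and 25 bases on either side. The genes shown were chosen after their values were seen.
SPRR1B (chr1:153031037-153031123, plus strand, AP-1 matches): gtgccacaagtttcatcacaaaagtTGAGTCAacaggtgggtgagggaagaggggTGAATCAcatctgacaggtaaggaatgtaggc
SPRR2A (chr1:153057678-153057734, minus strand, AP-1 match): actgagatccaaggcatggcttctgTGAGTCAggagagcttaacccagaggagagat
MMP10 (chr11:102780664-102780720, minus strand, AP-1 match): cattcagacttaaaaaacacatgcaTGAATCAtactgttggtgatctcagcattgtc
MMP7 (chr11:102530783-102530839, minus strand, AP-1 match): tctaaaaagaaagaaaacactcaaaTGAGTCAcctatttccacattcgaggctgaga
CXCL1 (chr4:73869289-73869348, plus strand, kB match): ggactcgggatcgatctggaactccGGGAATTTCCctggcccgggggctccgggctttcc
IL6 (chr7:22727102-22727161, plus strand, kB match): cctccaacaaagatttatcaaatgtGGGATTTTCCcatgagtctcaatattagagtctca
IL32 (chr16:3065279-3065338, plus strand, kB match): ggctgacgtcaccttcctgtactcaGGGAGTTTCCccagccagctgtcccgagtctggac
BST2 (chr19:17405720-17405785, minus strand, overlapping ISRE matches): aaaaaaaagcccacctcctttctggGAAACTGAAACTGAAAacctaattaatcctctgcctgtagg
IFIT1 (chr10:89392482-89392554, plus strand, ISRE matches in reverse): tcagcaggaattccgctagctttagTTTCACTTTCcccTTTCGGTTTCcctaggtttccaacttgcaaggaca

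The motifs searched, on both strands of the window from 250 bases before to 50 bases after the gene start, were TGANTCA for AP-1 (N is any base), GGGA and TTTCC with 1 N between them for NF-kB (kB), and GAAA and GAAA with 2 N between them for the interferon-stimulated response element (ISRE). Over the first-listed promoters of all 27305 RefSeq genes, 7.76% held the AP-1 letters, 0.579% the kB letters and 3.65% the ISRE letters. Of the 10 cornified envelope genes called higher, 5 had a promoter in the RefSeq table and 4 of these held the AP-1 letters, namely SPRR1A, SPRR1B, SPRR2A and SPRR2F. Both metalloproteinase genes called higher that had an entry, MMP7 and MMP10, held them, each starting 67 bases before the gene start. The kB letters were found in 5 of 12 promoters of NF-kB and inflammatory genes called higher (TNFAIP3, IL6, CXCL1, NFKBIA and CXCL2). IL32, printed above, is not a member of that list and is not counted. ISRE letters were found in 5 of 7 promoters of interferon-stimulated genes called higher (BST2, IFIT1, IFITM1, IFI44 and IFIT3). These gene groups are known for these factors, so shares above those of all promoters could be found whatever the values here. Members not called are not counted, and the 4 AP-1 matches among cornified envelope genes are all in SPRR genes. A match is a description of letters, and binding was not measured.

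Resistant cells lay above both positive libraries in 5860 genes (48.4% of those tested) and below both in 5110 (42.2%). The difference was at least 2-fold against each in 811 genes called higher (6.70%) and 458 called lower (3.79%). Between the positive libraries themselves the same fold separated 34 genes higher (0.281%) and 7 lower (0.0579%) in 0610. The absolute difference on the log2 scale had a median of 0.37 between the resistant library and the positive mean, against 0.11 between the positive libraries, and the median signed difference over all tested genes was 0.04. With 1 library against 2, an exact permutation test of a single gene cannot go below 0.333, so the calls are fold counts without a test. At the threshold, GCAT was just inside the higher calls at 23.7 against 11.3 and 11.01, and CD68 just outside at 51.9 against 25.5 and 20.96. TRAF7 was just inside the lower calls at 19.03 against 39.1 and 40.5, and ZGPAT just outside at 12.8 against 27.6 and 26.5. The counts rest on the pseudocount: 349 higher and 181 lower were called with a pseudocount of 5, and 692 lower with 0.1. Without the positive library 0603, 691 genes were called lower.

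**Figure D1:**
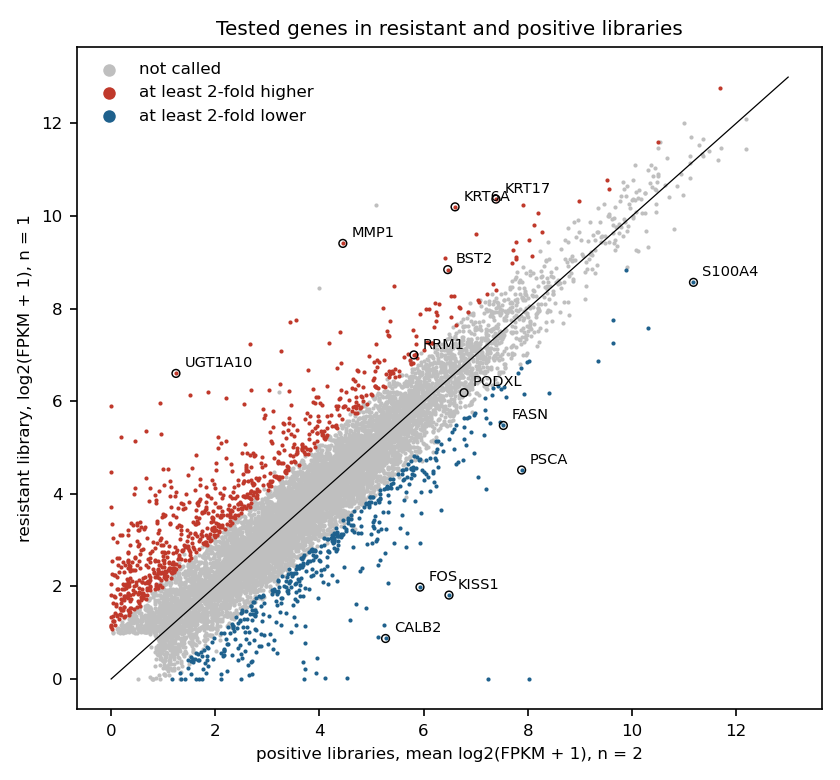
Each point is 1 of the tested genes, by its mean log2(FPKM + 1) in the 2 positive libraries (x axis) and its log2(FPKM + 1) in the resistant library (y axis), with the line of equality. Red and blue mark genes at least 2-fold higher or lower than both positive libraries; MMP1, KRT6A and UGT1A10 lie far above the line, KISS1, CALB2 and PSCA far below it.

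Most of the genes called higher were also at their highest in the resistant cells among all 6 libraries. The resistant level was at least 2-fold above each of the other 5 libraries in 688 genes, and at least 2-fold below each in 262. At a 4-fold threshold against both positive libraries, 173 genes were higher and 60 lower. The unsorted parental library shares with the resistant one that it was not sorted. Measured against the same positive libraries it was at least 2-fold higher in 171 genes (1.41%) and lower in 578 (4.78%). Of the 117 named genes called against positive cells, 20 were not 2-fold apart in the same direction from unsorted parental cells. They were RAD23B, SRGAP2D, SRGAP2C, PLEC, FOS, FOSB, EGR1, COL6A1, SPARC, TFF2, MUC16, SLPI, HMGCS1, SREBF1, EREG, H2AFX, HIST1H2BJ, RPL37, COX6C and CXCR4.

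The highest ratios belonged to a drug-conjugating enzyme, secreted proteases and inflammatory mediators. UGT1A10, a glucuronosyltransferase, stood at an FPKM of 96.0 in the resistant cells, 1.54 and 1.21 in the positive libraries 0603 and 0610, and 0.542 in unsorted parental cells. MMP1, an interstitial collagenase (hg19 chromosome 11, 102660641 to 102668966), stood at 678 in resistant against 21.1 and 20.6 in positive cells. The cytokine IL32 was at 60.9 against 1.02 and 0.813. For these 3 genes the resistant value stood far above every other library, with differences from the positive mean of 5.36, 4.96 and 5.01 on the log2 scale. LRRN1, a leucine-rich repeat neuronal membrane protein, was at 36.2 against 0.152 and 0.141, the latter values close to the limit of detection. The eotaxin CCL26 was at 34.5 against 0.473 and 0.273, and CXCR7, an atypical chemokine receptor now named ACKR3, at 40.0 against 0.795 and 0.422. LCP1, the actin-bundling protein L-plastin of leukocytes and many carcinomas, reached 150.1 against 5.77 and 4.95. SERPINF1, which encodes the secreted factor PEDF, reached 38.4 against 0.814 and 1.09. The rest of the 15 highest were SPRR2D, MMP13, CSTA and C8orf4, with 3 genes whose values are doubtful. Of these, RAD23B and SRGAP2D were listed at or next to 0 in all 4 sorted libraries, and at 65.8 and 32.0 in unsorted parental cells, so no fold is given. FABP4, a fatty acid-binding protein, was listed at 0 in both positive libraries and at 12.2 in resistant cells. Unlike the other 2, it was also at or next to 0 in unsorted parental cells (0) and in the negative libraries (0.0351 and 0).

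The lowest ratios included KISS1, CALB2 and SCG2. KISS1, the metastasis-suppressor gene for kisspeptin (hg19 chromosome 1, 204159469 to 204165619), was at 2.51 in resistant cells against 87.5 and 89.96 in positive cells and 53.03 in unsorted parental cells. CALB2, the calcium-binding protein calretinin, was at 0.834 against 34.0 and 41.5, and at 123 in unsorted parental cells. The granin SCG2 was at 1.24 against 33.7 and 40.5. Each of these 3 genes was lowest in the resistant cells of all 6 libraries, at -4.67, -4.39 and -4.08 from the positive mean on the log2 scale. HAPLN1, a hyaluronan link protein, was at 0.0084, under the limit of detection, against 15.8 and 16.7. PSCA, a surface antigen of prostate and pancreatic cancer, was at 21.8 against 217 and 254, and at 547 in unsorted parental cells. Further genes of this end were C6orf15, TM4SF18, the connexin GJA5, BPI, CAPS and the neurotensin receptor NTSR1. FOS was at 2.96 against 63.0 and 57.1, but at 5.49 in unsorted parental cells, so both unsorted libraries were low. PLEC was listed at 0 in both unsorted libraries. SRGAP2C and RPL21 have near-identical copies between which fragments can be divided, and are uncertain.

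**Figure D2:**
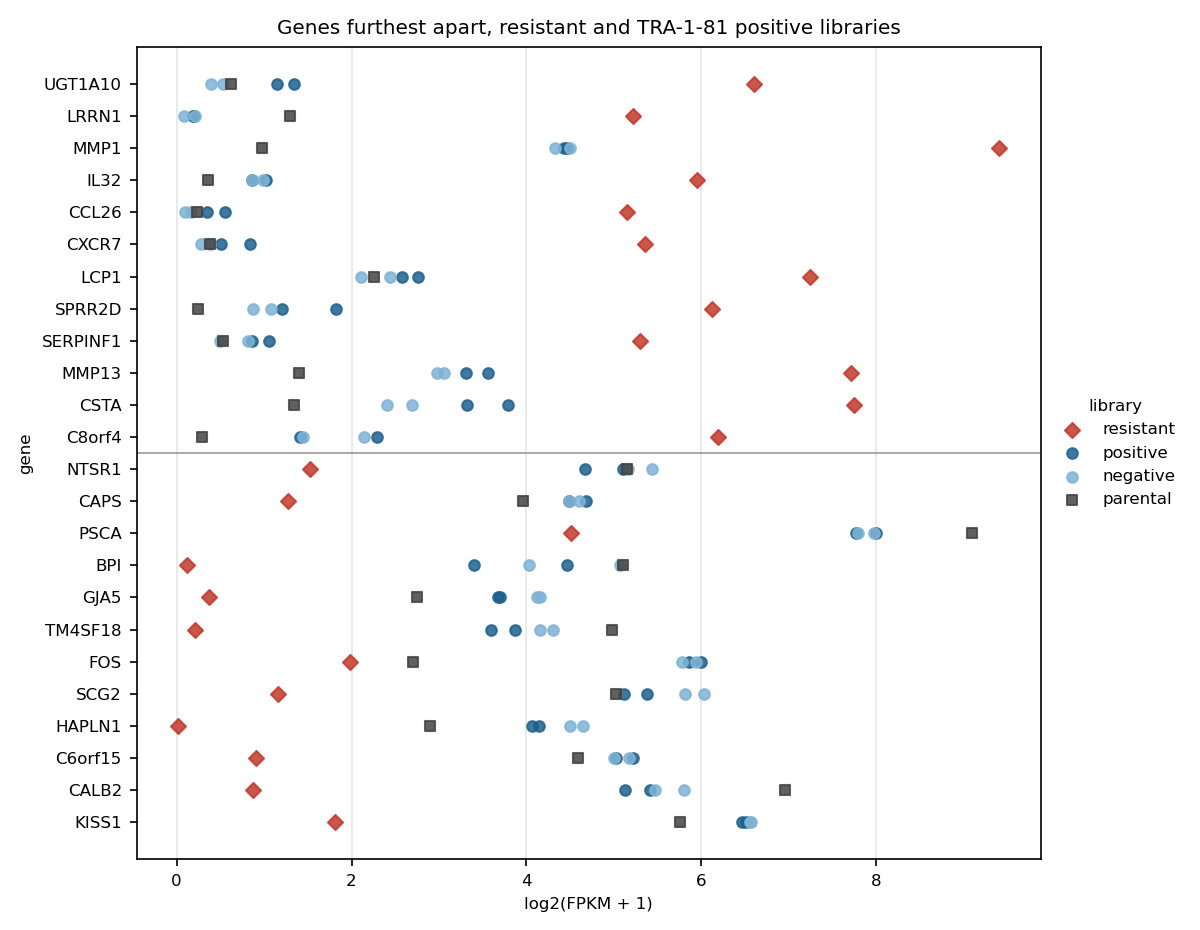
Each row is 1 gene of the 15 highest or 15 lowest, without the 6 doubtful ones named in the text, and each point 1 library, on a log2(FPKM + 1) axis: resistant (1), positive (2), negative (2) and unsorted parental (1). The red diamond lies apart from all 5 other libraries in every gene, nearest to the parental square for FOS.

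Squamous and cornified genes were higher as groups. Of 21 tested basal and squamous keratins and factors, 14 were called higher and 0 lower, with a median of 1.82 on the log2 scale against 0.04 over all genes. All 21 lay above both positive libraries, but members that passed the filter through the resistant library alone, such as SERPINB13, had to. Over all 26 members in the table, with no filter on low values, the median was 1.44. KRT6A, a keratin of activated stratified epithelium, was at 1173 in resistant and 115 and 80.3 in positive cells. KRT17, its basal partner in wound-edge epithelium, was at 1317 against 170.3 and 163. The basal keratin KRT5 was at 1201 against 263 and 217. All 3 were lower again in the negative libraries, at 60.4 and 49.3 for KRT6A, and lowest in unsorted parental cells, at 3.02, 11.03 and 24.1. TP63, the master factor of squamous epithelium, was at 34.3 against 6.71 and 8.15, with 3.09 and 4.59 in negative and 0.206 in unsorted parental cells. The positive cells therefore lay between the negative and the resistant values for each of these genes. SERPINB13, a squamous serpin, was at 9.11 against values of 0 and 0.0121. The other genes called were DSG3, TRIM29, KRT14, GJB6, KRT13, KRT6C, GJB2, FAT2 and GRHL3.

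Among the 17 tested cornified envelope and epidermal differentiation genes, 10 were called higher and 0 lower, with a median of 2.26. At any size, 13 lay above both positive libraries and 4 below, the lowest at -1.13 from the positive mean. Over all 26 members in the table, with no filter on low values, the median was 0.50, since genes that pass through the resistant library alone had to differ. Small proline-rich proteins, which are cross-linked beneath the membrane of keratinocytes, led the group. SPRR2D was at 68.8 against 2.54 and 1.30, SPRR2A at 134 against 10.8 and 6.88, and SPRR1B at 358 against 48.5 and 37.0. CSTA, a cysteine protease inhibitor of the envelope, was at 213 against 8.99 and 12.8. TGM1, the transglutaminase that cross-links these proteins, was at 18.5 against 1.35 and 1.02. Each of the 10 was at least 2-fold above all 5 other libraries. Factors of the classical pancreatic state did not move as a group: of 13 tested, 0 were called higher and 1 lower, with a median of 0.21, or 0.06 over all 19 in the table. The one called was ELF5, an epithelial ETS factor, at 0.0761 against 2.89 and 3.85, and at 36.5 in unsorted parental cells.

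Inflammatory genes downstream of NF-kB were higher in most cases. Of 23 tested, 14 were called higher and 0 lower, and the median was 1.23. PTGS2, the inducible cyclooxygenase, was at 22.2 in resistant against 0.99 and 1.26 in positive cells. CCL20, a chemokine of mucosal epithelium, was at 153 against 12.7 and 23.01. IL1B was at 258 against 31.1 and 42.03. For all 3 the positive libraries lay close to the negative ones, which held 1.41 and 1.84 for PTGS2, and apart from the resistant value. Growth factors of the group included CSF2 at 10.5 against 1.14 and 0.88, and IL6 at 10.2 against 2.67 and 1.796. Feedback inhibitors of the pathway were higher too: TNFAIP3 (A20) stood at 48.7 against 10.3 and 9.10, and NFKBIA at 94.5 against 40.8 and 38.9. CSF3, CXCL1, CXCL2, IL8, BIRC3, NFKBIE and IL1A completed the called genes. LIF, a cytokine of the IL6 family, went the other way without reaching the threshold against both, at 22.4 against 45.5 and 53.7.

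Interferon-stimulated genes were higher by smaller steps. Of 34 tested, 10 were called higher and 0 lower, with 28 above both positive libraries and a median of 0.75. BST2, the tethering factor tetherin, was at 458 against 86.0 and 88.4. The membrane-restriction genes IFITM2 and IFITM1 were at 279 against 77.0 and 69.3 and at 799 against 324 and 298. IFIT2, which binds viral RNA, was at 75.3 against 25.9 and 23.7. Further called genes were IFIT1, USP18, IFI44, OAS1, IFIT3 and the RNA sensor DDX58. Unsorted parental cells were far below the positive cells in this group, with a median of -2.59 against the positive mean, for example 4.26 for BST2. ISG15, a ubiquitin-like modifier of the same group, was not called and stood lower in resistant cells, at 459 against 630.2 and 569.6. Of 22 signalling factors, IFNGR1 and TMEM173 (STING) were called higher (9.09%, against 6.70% over all tested genes). They stood at 77.6 against 26.4 and 28.6 and at 67.8 against 27.6 and 25.8. Antigen presentation genes gave 0 calls of 19 tested, against 6.70% called higher and 3.79% lower over all tested genes. A list this short could give 0 calls without differing from them. B2M was at 1766 against 1029 and 1033, and HLA-B at 957 against 470.1 and 536.

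A minority of metalloproteinase genes stood higher along with MMP1. Of 16 tested metalloproteinases and inhibitors, 5 were called higher and 0 lower, with a median of 0.53: MMP1, MMP13, MMP10, MMP7 and MMP12. MMP13, another collagenase, was at 208 against 10.8 and 8.88. MMP10, a stromelysin, was at 22.2 against 1.07 and 0.924, and the matrilysin MMP7 at 8.69 against 0.419 and 0.56. MMP14, the membrane-anchored activator, was at 153 against 103 and 129.6 and was not called. Mesenchymal genes split: 3 of 13 were called higher and 3 lower. The transcription factor SNAI2 (Slug), known to repress E-cadherin, was at 104 against 20.9 and 17.5, COL1A1 at 14.1 against 2.44 and 3.11, and the cadherin CDH2 at 4.76 against 1.40 and 1.17. S100A4, a calcium-binding protein of motile cells, was at 378 against 2529.6 and 2132, COL6A1 at 8.51 against 32.9 and 38.2, and SPARC at 0.335 against 2.55 and 7.25. For COL6A1 and SPARC the unsorted parental values, 9.57 and 0.337, were as low as the resistant ones.

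Conjugating enzymes that passed the filter were mostly called. Of 10 tested glucuronosyltransferases and glutathione transferases, 8 were called higher and 0 lower, with a median of 1.20. Over all 22 in the table the median was 0.22, and the others had an FPKM under 1 in all 3 libraries. UGT1A6 was at 55.5 against 6.69 and 6.36, with 0.663 and 0.618 in negative cells and a value listed next to 0 in unsorted parental cells. UGT1A6 and UGT1A10 share their later exons, so the division of fragments between them is uncertain. GSTP1, the main glutathione transferase of epithelial tumours, was at 1758 against 769 and 704. GSTM4, GSTA4, GSTM3, MGST2 and MGST3 were called as well. Of 27 NRF2 targets, 4 were called higher and 0 lower. GPX2, an epithelial glutathione peroxidase, was at 182 against 35.5 and 41.0, with 14.7 and 16.3 in negative and 1.14 in unsorted parental cells. The aldo-keto reductase AKR1C2 was at 14.5 against 2.66 and 2.58, and the iron-binding nuclear protein PIR at 31.0 against 11.7 and 12.6. NQO1, a quinone reductase and textbook NRF2 target, stood lower without a call, at 83.3 against 158 and 179.

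**Figure D3:**
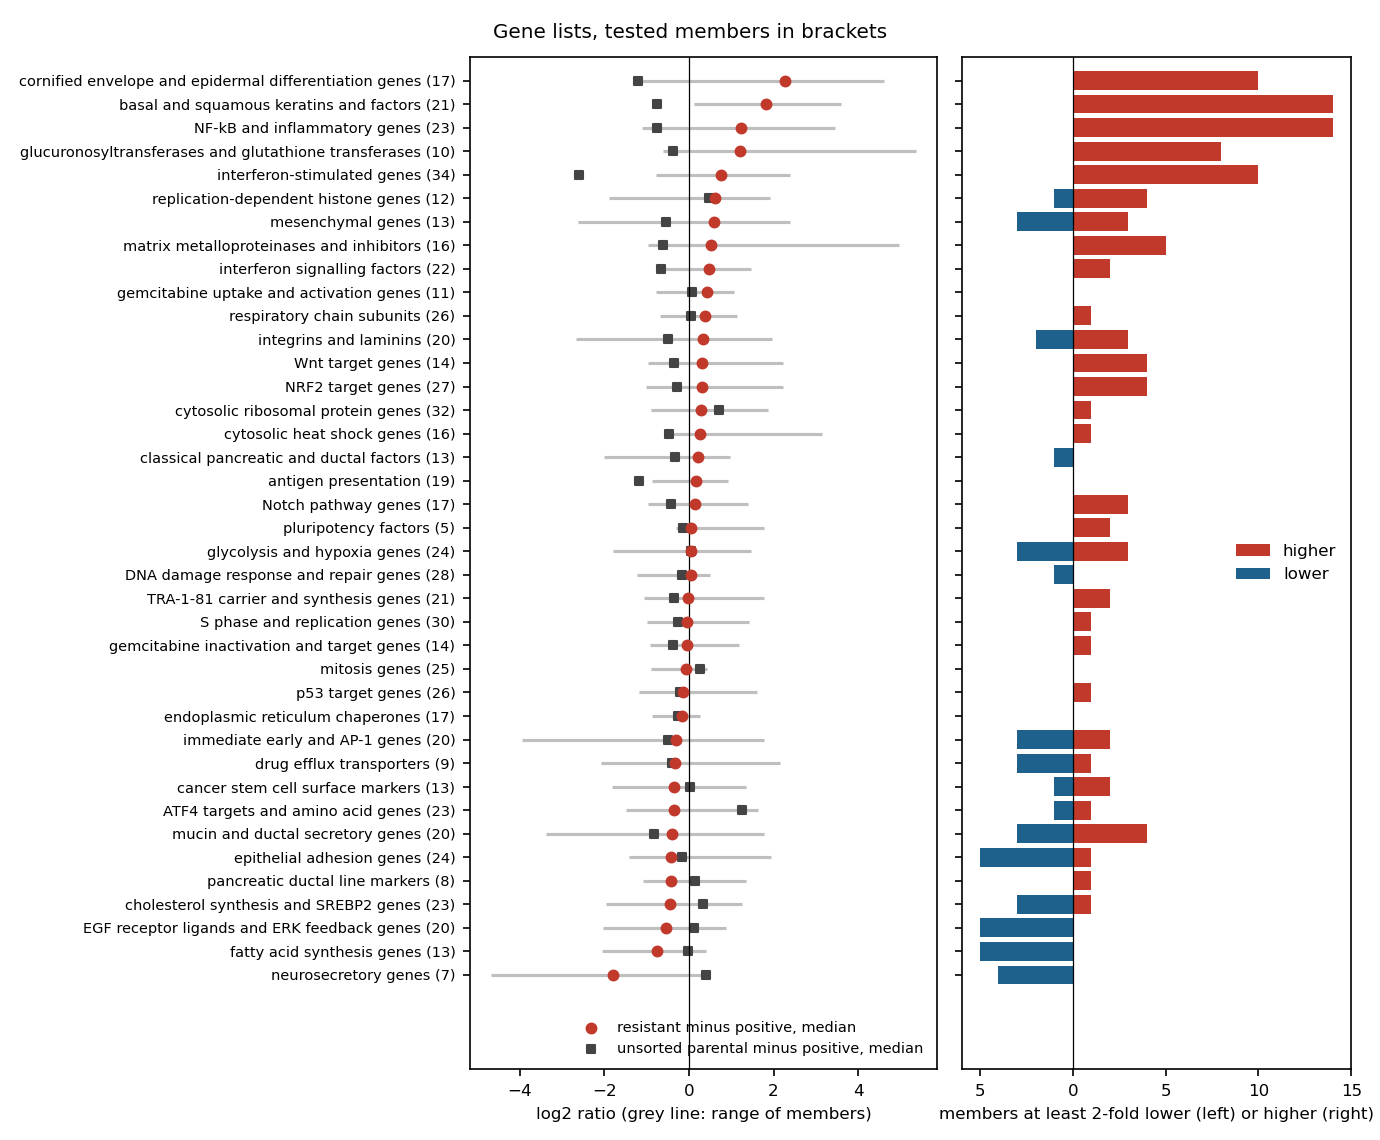
Left: for each gene list with at least 5 tested members, the median log2 ratio of resistant to positive (red), the range of its members (grey line) and the median of unsorted parental to positive (square). Right: number of members called higher (red) or lower (blue); cornified, squamous and NF-kB lists lie at the top, neurosecretory and fatty acid lists at the bottom.

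Genes that take up and activate gemcitabine gave 0 calls of 11 tested, with a median of 0.42, or 0.28 over all 14 in the table. Over all tested genes 6.70% were called higher and 3.79% lower, so a list this short could give 0 calls without differing from them. DCK, the kinase of the first phosphorylation, was at 9.57 in resistant against 17.5 and 16.7 in positive cells and 18.2 in unsorted parental cells, the lowest of all 6 libraries and -0.78 from the positive mean on the log2 scale. The transporter SLC29A1 (ENT1) was higher without a call, at 25.6 against 17.9 and 14.1, and SLC29A2 (ENT2) lower, at 11.3 against 19.6 and 18.7. SLC29A3, a transporter of intracellular membranes, was at 8.88 against 4.21 and 3.26 and passed the threshold against 0610 alone. The concentrative transporters SLC28A1, SLC28A2 and SLC28A3 stayed under 0.3 in all libraries. Nucleotide kinases lay close to the positive values, with CMPK1 at 65.3 against 60.9 and 58.8. The others (TK2, UCK1, UCK2, NME1, NME2, NME4) differed by 0.25 to 0.49 from the positive mean.

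Of 14 tested inactivation and target genes, RRM1 was the one called (7.14%, near the 6.70% called higher over all tested genes). RRM1, the large subunit of ribonucleotide reductase (hg19 chromosome 11, 4115924 to 4160106), was at 127 in resistant against 59.04 and 51.7 in positive cells, 56.4 and 46.9 in negative and 39.2 in unsorted parental cells. The resistant library stood alone above the 5 others, by 1.19 on the log2 scale from the positive mean. CDA, the deaminase that inactivates gemcitabine, was at 81.0 against 45.8 and 33.6, which passed the threshold against 0610 alone. Against positive cells the small subunits went the other way, with RRM2 at 76.4 against 97.2 and 84.1 and RRM2B at 8.33 against 14.4 and 19.2. For RRM2 the negative libraries held 81.4 and 66.5 and unsorted parental cells 45.1, so the resistant value lay within the range of the others. The ecto-nucleotidase NT5E (CD73) was at 58.4 against 110.2 and 111. SAMHD1, which breaks down dNTPs, was at 36.1 against 45.8 and 47.2, but above the 12.5 of unsorted parental cells. DCTD, TYMS, CTPS1, CTPS2, POLA1, NT5C, NT5C2 and NT5C3 differed from the positive mean by -0.27 to 0.45. NT5C1A was listed at 0 in all libraries, and NT5M stayed under 0.4.

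RRM1 did not stand alone on its chromosome. All 8 tested genes that start within 1 Mb of it were above both positive libraries, with a median of 0.91, and 3 were called higher: ZNF195, RRM1 and TRIM21. Among them STIM1, a calcium sensor, and RHOG, a small GTPase, were at 29.8 against 16.7 and 14.4 and at 65.8 against 35.7 and 32.6. The same 8 genes were lower in unsorted parental than in positive cells, with a median of -0.66.

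Of 9 tested efflux transporters, 1 was called higher and 3 lower. ABCC5, which exports nucleotide analogues, was at 66.7 against 15.3 and 13.2, and at 7.58 in unsorted parental cells. ABCG2, the transporter behind the side population phenotype, was at 2.48 against 11.2 and 11.3. The lung surfactant lipid transporter ABCA3 was at 0.359 against 4.20 and 5.25, and ABCC1 (MRP1) at 18.9 against 39.4 and 44.04. The resistant values of these 3 genes were the lowest of all 6 libraries.

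Transcripts that make or carry the TRA-1-81 epitope were not higher together in resistant cells. PODXL, the carrier (hg19 chromosome 7, 131185021 to 131241376), was at 71.7 in resistant against 108 and 109 in positive cells, 104 and 110.3 in negative and 153 in unsorted parental cells. Resistant cells were thus the lowest of the 6 libraries, and positive and negative cells overlapped. Of 21 tested carrier and synthesis genes, 2 were called higher (9.52%, against 6.70% over all tested genes) and 0 lower, with a median of -0.02. They were GCNT3, a mucin core-branching enzyme, at 3.31 against 0.246 and 0.266, and the podocalyxin relative PODXL2, at 5.72 against 2.06 and 1.68. The chain-building enzymes B3GNT2 and B3GNT7 were lower without a call, at 16.7 against 25.4 and 26.6 and at 5.61 against 7.26 and 7.96. GCNT1, a branching enzyme like GCNT3, was higher without a call, at 3.90 against 1.72 and 1.49. The fucosyltransferases FUT2 and FUT3 were at 6.33 against 2.97 and 3.14 and at 7.71 against 14.6 and 20.3. B3GNT5, B3GALT5, B4GALT1, B4GALT2, B4GALT3, B4GALT4, ST3GAL1, ST3GAL2, CHST2, CHST4, FUT1, FUT4 and GCNT2 differed from the positive mean by -0.59 to 0.47. B3GALT1, B3GALT2 and CHST1 stayed under 0.2 in all libraries. RNA does not measure the epitope itself.

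The shares of calls in the next 4 short lists stand beside 6.70% called higher and 3.79% lower over all tested genes. Of 5 tested pluripotency factors, MYC and the DNA methyltransferase DNMT3B were called higher (40.0%), with a list median of 0.06. They were at 117 against 34.7 and 32.3 and at 14.03 against 5.62 and 5.13. MYC was flat across the 5 parental-line libraries, from 32.3 to 34.8. Among 13 surface markers used for cancer stem cells, CXCR4 and NES were called higher (15.4%) and ABCG2 lower (7.69%). CXCR4 was at 3.18 against 0.684 and 0.581 and NES at 11.6 against 4.15 and 3.73. At any size, 8 of the 13 lay below both positive libraries and 5 above. Notch genes gave 3 higher of 17 (17.6%), the ligands DLL1 and JAG1 and the factor HES2. JAG1 was at 67.6 against 22.8 and 32.8, DLL1 at 3.396 against 0.543 and 0.818 and HES2 at 5.85 against 1.598 and 2.07. The Notch list as a whole was near even, with 8 above both positive libraries, 7 below and a median of 0.15. Wnt targets gave 4 higher of 14 (28.6%), with 10 above both positive libraries and 4 below. BAMBI, a pseudoreceptor of TGF-beta signalling, was at 17.5 against 2.94 and 2.91, and LEF1, a nuclear effector of Wnt signalling, at 2.42 against 0.266 and 0.137; MYC and DKK3 were the others.

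Several groups were lower. Of 7 tested neurosecretory genes, 4 were called lower and 0 higher, with a median of -1.79, against 0.00 over all 18 listed genes in the table with no filter on low values. They were KISS1, CALB2, SCG2 and the neuronal enolase ENO2, at 6.26 against 25.01 and 23.1. The name of this list is loose for CALB2, a calcium-binding protein, and for ENO2, an enolase also in the glycolysis list. Among 20 EGF receptor ligands and ERK feedback genes, 5 were called lower and 0 higher, with a median of -0.55. ETV4, an ETS factor induced by ERK, was at 6.60 against 26.8 and 31.3. The phosphatase DUSP4 was at 25.5 against 91.2 and 126, and the ligand EREG (epiregulin) at 15.5 against 51.5 and 71.3. ETV5 and SPRY1 were the others. For ETV4 and DUSP4 the resistant value was the lowest of 6 and the other 5 libraries lay from 26.8 to 37.8 and from 91.2 to 142.

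Lipid synthesis genes were lower in part. Of 13 fatty acid synthesis genes, 5 were called lower and 0 higher, with a median of -0.75. FASN, the fatty acid synthase, was at 43.5 against 176 and 193, ACSS2, an acetyl-CoA synthetase, at 29.4 against 75.9 and 87.5, and the regulator SREBF1 at 16.5 against 39.96 and 47.8. FADS2 and SCD, both desaturases, were called as well. Of 23 cholesterol genes, 3 were called lower and 1 higher. MVD, a decarboxylase of the mevalonate route, was at 24.8 against 96.7 and 103 and LSS, lanosterol synthase, at 20.6 against 42.9 and 46.3. HMGCS1, which makes HMG-CoA, was at 99.2 against 41.6 and 40.9. It lies within a stretch of chromosome 5 described below.

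Some cell junction genes were lower. Of 24 epithelial adhesion genes, 5 were called lower and 1 higher, with a median of -0.42 and 17 below both positive libraries, at any size. LLGL2, a polarity protein, was at 20.3 against 53.8 and 57.0, the desmosomal plakophilin PKP2 at 18.7 against 51.6 and 44.3, and the tight junction protein OCLN at 2.75 against 7.64 and 7.61, with CLDN3 and CLDN4 the others. CLDN1 was called higher, at 255 against 56.8 and 75.002. Integrins and laminins gave 3 higher and 2 lower of 20. The hemidesmosomal collagen COL17A1 was at 236 against 63.8 and 56.2 and ITGA1 at 4.01 against 1.12 and 1.42, while LAMA5 was at 19.7 against 112 and 152 and LAMA4 at 3.88 against 11.3 and 10.2. Of 20 mucin and ductal secretory genes, 4 were higher and 3 lower. SLPI, a secreted antiprotease, was at 891 against 273 and 284, MUC13 at 4.77 against 0.764 and 0.598 and the protease CTSE at 4.04 against 1.04 and 1.05, with PIGR the remaining one. PSCA, TFF2 (0.469 against 7.21 and 8.95) and MUC16 (6.96 against 17.7 and 19.4) were lower.

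Stress and growth programmes differed in their share of calls. Over all tested genes 6.70% were called higher and 3.79% lower. Immediate early genes and glycolysis and hypoxia genes lay above both shares, on few calls each. Immediate early genes gave 2 higher (MYC and ATF3) and 3 lower (FOS, FOSB and EGR1) of 20. FOSB was at 0.709 against 5.78 and 4.76 and EGR1 at 4.90 against 12.2 and 18.1. With 0.254 and 2.59 in unsorted parental cells, both would be higher in resistant cells against that library, by 0.45 and 0.72 on the log2 scale. Of 23 ATF4 targets, ATF3 was called higher and DDIT4 lower (4.35% each). They stood at 7.85 against 1.502 and 2.23 and at 67.5 against 156 and 231. The positive libraries disagreed in this group, with ASNS at 21.1 and 86.8 around a resistant value of 24.96, so it carries little. Glycolysis and hypoxia genes gave 3 higher (NDRG1, CA12 and ADM) and 3 lower (ENO2, SLC2A1 and PDK1) of 24, or 12.5% each way. The glucose transporter SLC2A1 was at 41.1 against 92.5 and 98.03. Of 16 cytosolic heat shock genes, the small chaperone HSPB8 was called higher (6.25%, near the all-gene share), at 14.8 against 1.10 and 0.53. Endoplasmic reticulum chaperones (17 tested) and mitosis genes (25 tested) gave 0 calls, with CALR at 790.3 against 831 and 767 and CDK1 at 181 against 173 and 179. Lists this short could give 0 calls without differing from all tested genes.

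In the remaining lists, 26 p53 targets gave 1 call (3.85%, against 6.70% called higher over all tested genes), GADD45A, at 80.5 against 21.3 and 31.1. The 30 S phase genes gave 1 (3.33%), the cyclin CCNE1, at 27.7 against 11.5 and 8.31. Of 28 DNA damage genes, the histone H2AFX was called lower (3.57%, near the 3.79% over all tested genes). It was at 22.1 against 47.5 and 59.1, with 23.3 in unsorted parental cells. Replication-dependent histones gave 4 higher and 1 lower of 12, led by HIST1H2BC at 15.2 against 2.95 and 3.60. HIST1H2BJ, at 8.09 against 3.31 and 3.09, was higher still in unsorted parental cells, at 11.3. The one call among 32 ribosomal protein genes (3.12%) was RPL37, at 1077 against 289 and 297, with 627 in unsorted parental cells. The median of that list was 0.28 in resistant and 0.72 in unsorted parental cells, each against positive cells. The one call among 26 respiratory chain subunits (3.85%) was COX6C, at 288 against 139 and 124.

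Differences between resistant and positive cells were unevenly spread along the chromosomes. In windows of 10 Mb with at least 20 tested genes, 210 of 220 had a median ratio within 0.5 of 0 on the log2 scale, and a few stretches stood apart. They were picked after their values were seen and are given without a test. Over the first 50 Mb of chromosome 5, 84 tested genes had a median of 1.01, 69 of them lay above both positive libraries and 38 were called higher (45.2%), against 7.51% on the rest of that chromosome. The first 10 Mb went the other way, with a median of -0.30 over 24 genes, 3 called higher and 4 lower, while the windows from 30 to 40 and 40 to 50 Mb had medians of 1.20 and 1.23 with 17 and 12 genes called higher and 0 lower. All 84 genes had a median of 0.04 in unsorted parental against positive cells. They include RPL37 and HMGCS1 (1.10 and 0.28 in unsorted parental against positive cells), the only members called higher of the ribosomal and cholesterol lists. Others were OSMR, the oncostatin M receptor, at 61.1 against 14.4 and 16.1, SKP2, a ubiquitin ligase subunit that degrades CDK inhibitors, at 58.3 against 21.7 and 17.4, and NIPBL, the cohesin loader, at 17.7 against 5.23 and 5.80.

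Lower values prevailed on chromosome 12 from 10 to 30 Mb. There 75 genes had a median of -0.73 against positive cells, 58 lay below both and 20 were called lower (26.7%, against 3.99% on the rest of the chromosome), while unsorted parental cells had a median of 0.15. The first 10 Mb, counted with the rest, were low as well, with a median of -0.57 over 73 genes, 11 of them called lower. BCAT1, a branched-chain aminotransferase, was at 11.1 against 56.1 and 66.8, and CDKN1B, the inhibitor p27, at 8.84 against 27.2 and 37.2. PTHLH, a parathyroid hormone-related protein in the same stretch, was higher, at 48.3 against 10.3 and 14.2.

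On chromosome 20 beyond 60 Mb, 48 of 49 genes were below both positive libraries, with a median of -0.81. Of these, 17 were called lower (34.7%, against 5.23% on the rest of the chromosome). LAMA5 and NTSR1 are among them, as is TNFRSF6B, a soluble decoy receptor, at 16.2 against 119.7 and 178. The first 10 Mb of chromosome 16 had a median of -0.62 over 147 genes, with -0.22 in unsorted parental cells. Of these genes 31 were called lower, ABCA3 included (21.1%, against 6.49% on the rest of the chromosome). The rest of chromosome 16 was low too, with a median of -0.34 and 293 of 416 genes below both positive libraries. The first 20 Mb of chromosome 11, where RRM1, IFITM1, IFITM2, ADM and DKK3 lie, had a median of 0.53 over 143 genes. Unsorted parental cells were at -0.43 there, and 34 genes were called higher (23.8%, against 9.35% on the rest of the chromosome). On chromosome 8 from 120 to 130 Mb, where MYC lies, 31 genes had a median of 0.57. There 8 were called higher (25.8%, against 10.3% over the whole chromosome). The first 10 Mb of chromosome 2 had a median of -0.59 over 22 genes, but 1 call. The stretches on chromosomes 5, 12, 20, 16 and 11 together held 72 of the 811 genes called higher (8.88%, in the 2 higher stretches) and 68 of the 458 called lower (14.8%, in the 3 lower ones). Of the 12099 tested genes, the 2 higher stretches held 84 and 143, and the 3 lower ones 75, 49 and 147. RNA alone was measured, and DNA copy number was not analysed here.

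**Figure D4:**
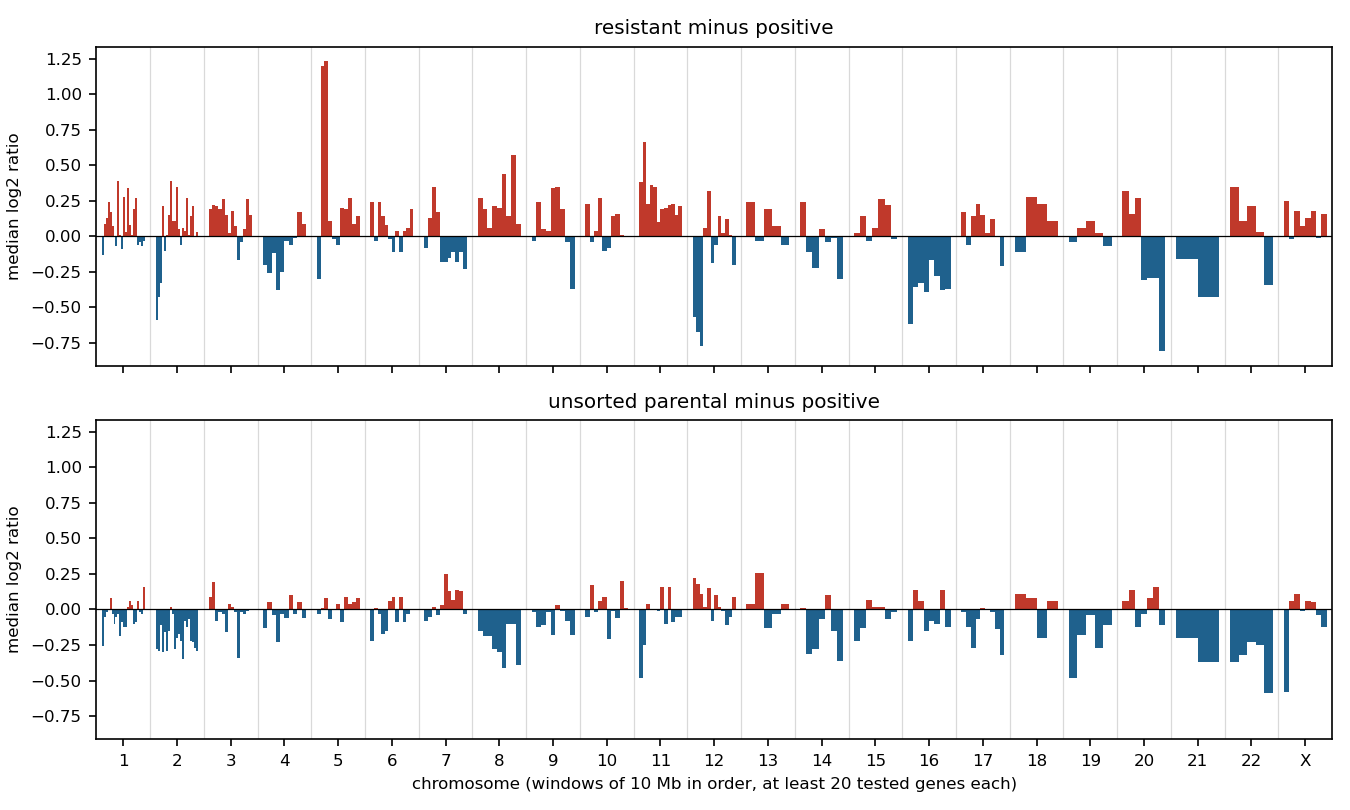
Bars are median log2 ratios of tested genes in consecutive windows of 10 Mb (at least 20 genes each), grouped by chromosome, for resistant against positive (top) and unsorted parental against positive (bottom). In the top panel the windows of chromosome 5 from 30 to 50 Mb reach 1.20 and 1.23, and the start of 12, the start of 16 and the end of 20 reach -0.77, -0.62 and -0.81; in the bottom panel the same windows of 5, 12 and 20 lie between -0.11 and 0.22.

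The GC content of the transcript moved with the ratio at its upper end. The 11495 tested genes with a matched transcript were split into 10 equal bins by GC content. In the bin with the highest GC (62.2% to 74.5%) the median was -0.36 and 13.8% were called lower, against 1.39% to 4.87% in the other bins, and 159 of the 458 genes called lower belong to it. Unsorted parental cells had a median of -0.46 against positive cells in that bin, so both unsorted libraries were low. Named genes of this bin include KISS1, FASN, LAMA5 and NTSR1, and the part of GC content in their values was not tested. With ratios centred within each GC bin, an alternative added after the pattern was seen, 716 genes were called higher and 413 lower. The medians of the stretches on chromosomes 5, 12, 20, 16 and 11 were then 1.02, -0.77, -0.75, -0.49 and 0.50. The rest of chromosome 16 was at -0.38.

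**Figure D5:**
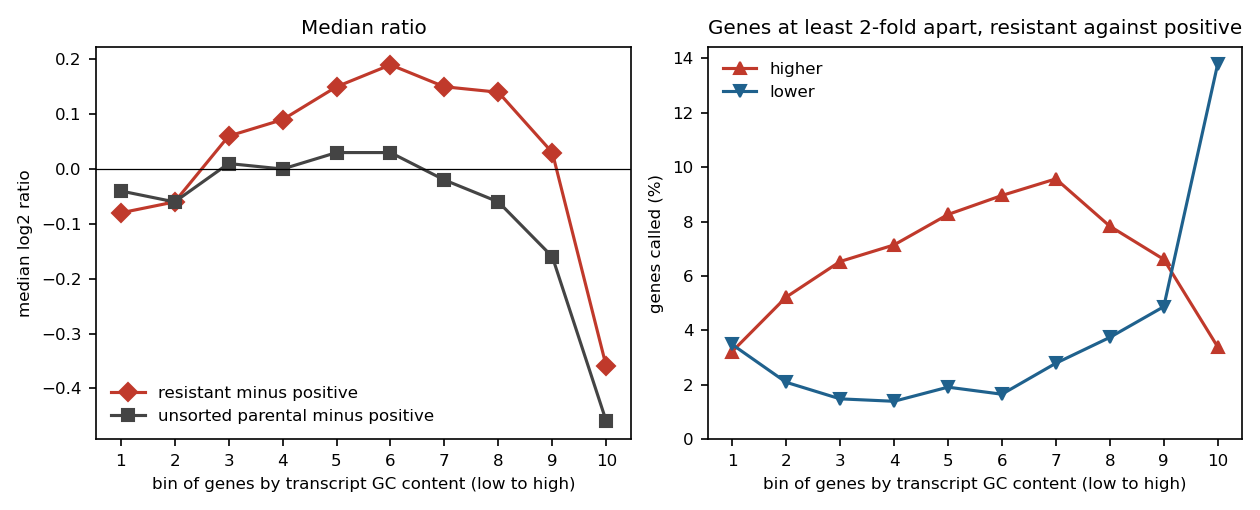
Genes in 10 bins by GC content of their transcript (x axis, low to high). Left: median log2 ratio of resistant (red) and unsorted parental (grey) to positive cells, both lowest in the last bin at -0.36 and -0.46; right: percent of genes called higher or lower in resistant cells, with lower calls reaching 13.8% in the last bin.

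A model over all 6 libraries in 4 groups gave wider counts. In limma, with Benjamini-Hochberg adjustment over all tested genes, 3207 genes were higher (26.5%) and 2608 lower (21.6%) in resistant than in positive cells at an adjusted p under 0.05. It has 2 residual degrees of freedom, from the positive and negative pairs, and assumes that the lone resistant library varies like them. These pairs are not independent: same-numbered positive and negative libraries correlated across genes at 0.995, above the 0.992 between the 2 positive and 0.993 between the 2 negative libraries, and no block for the number was fitted. Of the fold calls, 808 of 811 higher and 456 of 458 lower were among these; SPARC was a named exception, with an adjusted p of 0.0844. DCK, short of the fold threshold, had an adjusted p of 0.00361, RRM1 one of 0.00533, PODXL one of 0.00613 and CDA one of 0.0475.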

How the data were processed

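Per the labels, RNA of 6 libraries was sequenced on an Illumina instrument. The authors deposited 1 table of gene values; its header names no unit, and the values are taken as FPKM since Cufflinks 2.1.1 is listed, per the submitters' processing notes, with TopHat2 2.0.11, CASAVA 1.8.2 and hg19 and no roles. Of 19312 rows, 235 repeats of 191 symbols were left out (highest mean kept). Read counts cannot be recovered, so no count model was used. Exact zeros can be failed estimates: 7 genes were at 0 in 1 library and at least 5 in the other 5. Starts are given with 1 added. The main result is the fold against each positive library on log2(FPKM + 1), understating low genes. Alternatives were limma 3.58.1 (R 4.3.3, mean trend, two-sided) and other scalings. GC came from the longest GENCODE v29 coding transcript of each symbol. The labels do not say whether libraries are separate cultures, so their spread may be technical. The stretches, promoters and 42 gene lists were chosen with earlier results of these data known. Named genes are the 15 highest and 15 lowest with an FPKM of at least 5, up to 3 called per direction in each list and all gemcitabine and TRA-1-81 genes; others were chosen after their values were seen. Genes this build places on chromosome Y are not named. The fits were tested on simulated data. Some genes are not reported here.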

Additional observations from a re-analysis of the deposited data

How the results depend on the processing

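The counts of 811 genes higher and 458 lower kept within 1.5 times under no filter, an FPKM minimum of 5, quantile normalization, a median ratio of 0, GC-centred ratios, leaving out genes at 0 by sorting, and negative libraries as reference. They moved with the pseudocount (692 lower at 0.1; 349 higher and 181 lower at 5), with unsorted parental cells as reference (1629 and 832), with all 5 parental-line libraries as reference (262 lower), with a fold of 4 (173 and 60) and in limma (3207 and 2608). Leaving out 1 positive library gave 925 to 971 higher and 505 to 691 lower. Genes above both positive libraries ranged from 6347 to 6480 and below from 5541 to 5713 without one of them. Against unsorted parental cells 20 of 117 named calls were lost. Of these, 6 no longer kept their sign: RAD23B (-0.16), SRGAP2D (-0.58), PLEC (0.00), HIST1H2BJ (-0.43), FOSB (0.45) and EGR1 (0.72). Of 28 lists with a median of at least 0.2 in size, 6 changed sign against that library, 2 without the filter on low values (stem cell surface markers and, then at 0.00, neurosecretory genes) and 1 (ATF4 targets) without 0610; 0 did so under the other settings. The causes were not tested. No paired analysis was possible because the resistant and positive libraries share no replicate number and the result comes from no test. The number of libraries, 1 against 2, limits all calls.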
